A study of Mus musculus with 7 samples.

Results

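The insulin-like growth factor (IGF) axis was followed through its 10 genes listed in the deposited table of total RNA-Seq: the ligands Igf1 and Igf2, the receptors Igf1r and Igf2r, and the binding proteins Igfbp2, Igfbp3, Igfbp4, Igfbp5, Igfbp6 and Igfbp7. They were taken by gene symbol from a table of 11642 genes, in which each of the 10 has an entry of its own that no overlapping gene shares. All 10 passed the minimum mean of 0.5 RPKM (reads normalized to gene length and library size) and were among the 11086 genes tested. IGF1 and IGF2 are secreted hormones related to insulin, and both signal through the tyrosine kinase receptor IGF1R to the PI3K-AKT-mTOR and RAS-MAPK pathways. IGF2R, which is also the cation-independent mannose 6-phosphate receptor, takes IGF2 up for degradation, and the secreted binding proteins hold the ligands in the medium and release them after cleavage by proteases. In skeletal muscle cells the axis is known both for driving the proliferation of myoblasts and for sustaining their differentiation and growth.

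The cells were C2C12, an established line of mouse myoblasts that stops dividing and fuses into myotubes in low serum. Total RNA was sequenced on day 2 of differentiation from 2 samples transfected with a scramble siRNA (si-SCR) and 2 samples transfected with siRNA #1 against lnc-SMaRT, a muscle long non-coding RNA (si-SMaRT). The study describes them as independent cell populations, while the sample labels give only a number, so the p-values measure the spread between these samples. From C2C12 cells at the same day, RNA captured with antisense probes to lnc-SMaRT, RNA captured with probes to LacZ, and the input RNA were sequenced in 1 library each.

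The agent that separates the groups of samples is the siRNA, and its sequence is shown because any match to an IGF axis transcript would bear on the comparison. The sense strand, in lower case 5′ to 3′, is as follows.
si-SMaRT siRNA #1: gagaagcagaacaaacagaua
All 21 bases are found in 1 transcript of the GENCODE M21 annotation, that of Gm14635, the gene of lnc-SMaRT, at nucleotides 878 to 898 of 1409. In the transcripts of the IGF axis genes the longest exact run shared with the siRNA was between 6 bases, in Igfbp6, and 10 bases, in Igf2 and Igf1r. These runs of 10 bases lay at positions 2 to 11 and 7 to 16 of the sense strand. A run of 9 bases in Igf1 lay at positions 13 to 21, where 38.3% of the genes searched had a run of 9 bases or more anywhere in the siRNA. An effect of such runs was not tested. A run of 10 bases or more was present in 13.9% of the 10031 tested genes searched, and the median longest run was 8.5 bases for the IGF axis and 8 bases for all of these genes. Lnc-SMaRT itself was at 19.1 and 15.9 RPKM in si-SCR and at 2.88 and 3.65 RPKM in si-SMaRT. Both si-SMaRT samples thus lay below both control samples, with a log2 fold change of -2.39 ± 0.28 (SE) and an adjusted p of 0.000882 (limma with Benjamini-Hochberg adjustment).

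The effective library sizes behind the RPKM values ranged from 11291255 to 14312935 reads. In the study's read statistics, si-SMaRT 1 lost a larger part of its read pairs to the rRNA and tRNA filter than any other of these samples. Another feature of the libraries also precedes all the comparisons. The difference between the si-SMaRT samples was tied to base composition: over the 10864 genes with a known GC content, the median log2 difference of si-SMaRT 2 minus si-SMaRT 1 went from 0.67 in the decile of genes lowest in GC to -0.86 in the decile highest in GC (Spearman's rho of -0.85 across genes, which are not independent replicates). Between the si-SCR samples the same rho was 0.35, and for the difference of si-SMaRT minus si-SCR it was -0.31. The comparison between the groups thus also varied with GC content. For the 10 IGF axis genes, calls that change when either si-SMaRT sample is left out, or when the GC trend is removed from each sample, are therefore given with their values under these settings. Myotube genes also differed between the groups: the summed RPKM of 12 myotube markers was 18431 and 16813 in si-SCR and 10907 and 7989 in si-SMaRT, and 10 of the 12 were lower in both si-SMaRT samples, beside 20.4% of all genes. Limma called 0 of 12 as deposited, with 8 of 12 at an unadjusted p under 0.05 beside 9.09% of all genes, 4 of 12 with the GC trend removed and 3 of 12 with voom. The part of these differences in the results below was not tested. In total RNA of a culture, fewer cells of a type and less RNA per cell cannot be told apart.

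IGF axis transcripts spanned from above 100 RPKM to below 1 RPKM in control cells. Igf2, Igfbp5 and Igfbp2 stood at the top with mean si-SCR levels of 130.1 ± 20.1, 115 ± 15.8 and 107 ± 0.985 RPKM (SD, n = 2), followed by Igfbp6 at 87.1 ± 8.70 and Igfbp7 at 47.9 ± 5.66 RPKM. The receptors came next, Igf2r at 28.2 ± 6.44 RPKM and, after Igfbp4 at 9.37 ± 0.930 RPKM, Igf1r at 4.93 ± 0.356 RPKM. Igfbp3 at 3.59 ± 0.580 and Igf1 at 0.462 ± 0.0439 RPKM were the lowest. Neighbours in this order did not overlap in their 2 values, except Igf2 with Igfbp5 and Igfbp5 with Igfbp2, whose order is therefore not settled. RPKM is per length, but these levels can be compared between genes only roughly, since the libraries also varied with GC content. Igf2 was above 96.3% of all genes of the table and Igf1 above 4.66%. The RPKM of Igf2 was 269 and 293 times that of Igf1 in the control samples.

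**Figure D1:**
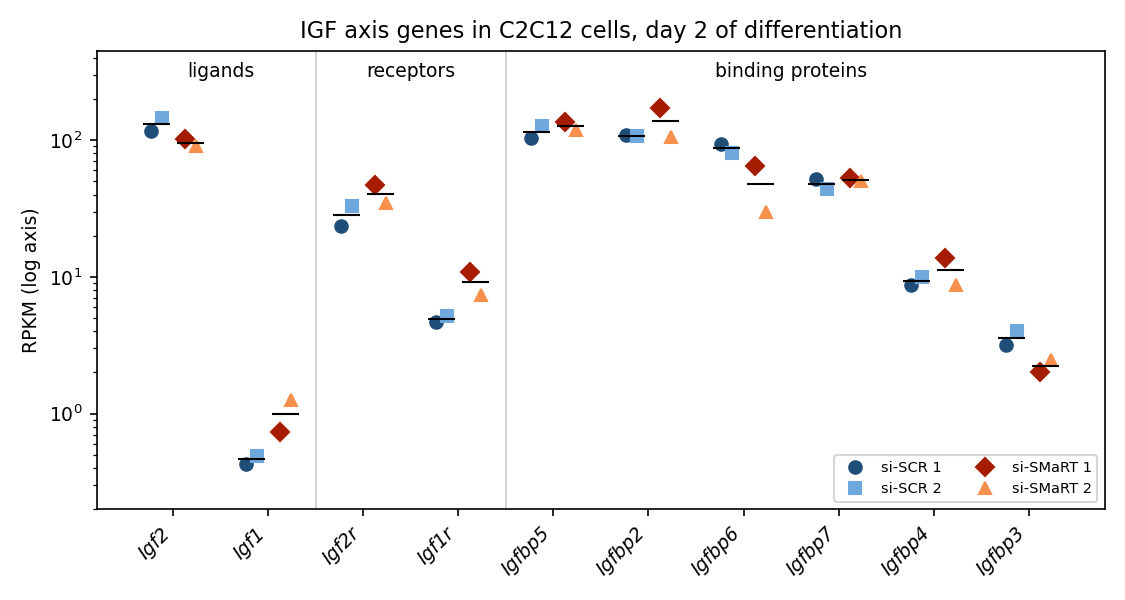
RPKM on a log axis of the 10 IGF axis genes, grouped as ligands, receptors and binding proteins, with 1 point per sample and a horizontal bar at the mean of each group. Igf2, Igfbp5 and Igfbp2 lie near 100 RPKM in the si-SCR samples and Igf1 below 1 RPKM, and the si-SMaRT samples of Igfbp6 lie at 64.99 and 29.8 RPKM, both below the controls.

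With the 4 samples as deposited, no IGF axis gene passed the test between si-SMaRT and si-SCR. Limma called 0 of 10 at an adjusted p under 0.05, where it called 0.505% of all genes tested, and voom on the reads recovered from the RPKM steps called 0 of 10 as well, against 0.974% of all genes. At an unadjusted p under 0.05 there were 4 of 10, namely Igfbp6, Igf1r, Igf1 and Igfbp3, against 9.09% of all genes. In 6 of 10 genes the groups did not overlap, against 40.7% of all genes: Igf1, Igf1r and Igf2r were higher in both si-SMaRT samples, and Igf2, Igfbp3 and Igfbp6 were lower, 3 of 10 in each direction against 20.2% and 20.4% of all genes. The median log2 fold change of the 10 genes was 0.19, beside 0.020 for all genes tested. Removing the GC trend of each sample brought Igf1r and Igfbp6 past the threshold, 2 of 10 against 5.81% of all genes. The same 2 of 10 passed, against 4.39% of all genes, with crossed replicate numbers as a term, an alternative chosen after seeing the data. With 1 sample left out, 2 of 10 passed without si-SMaRT 1 against 26.2% of all genes, and 4 of 10 passed without si-SMaRT 2 against 8.49%.

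**Figure D2:**
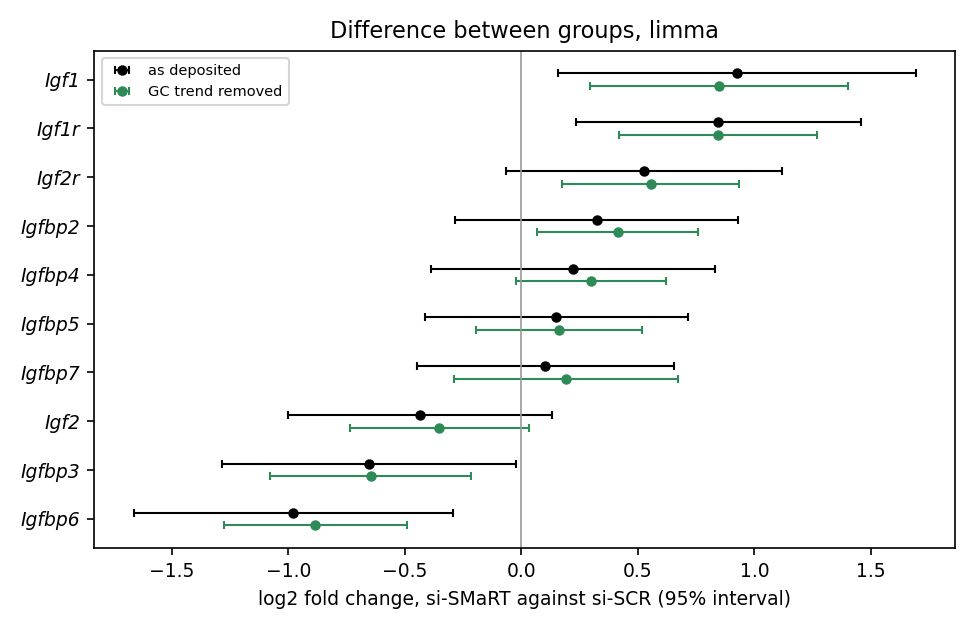
Log2 fold change of si-SMaRT against si-SCR with its 95% interval for each IGF axis gene, from limma on the values as deposited (black) and after removal of the GC trend (green). The estimates run from 0.93 for Igf1 to -0.98 for Igfbp6, and the intervals are narrower after removal of the trend.

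Among the ligands, Igf2 was the abundant one in every sample. Its gene lies on chromosome 7 (GRCm38 chr7:142650766-142666816, minus strand) in an imprinted region and codes for the growth factor that myoblasts release early in differentiation. Igf2 was at 116 and 144 RPKM in si-SCR and at 101 and 90.3 RPKM in si-SMaRT, from at least 6554 reads in each sample. The si-SMaRT samples were both lower, with means of 130.1 ± 20.1 and 95.9 ± 7.86 RPKM (SD, n = 2). The log2 fold change was -0.43 ± 0.27 (SE), with a 95% interval from -0.9995 to 0.13 and an adjusted p of 0.679 in limma with Benjamini-Hochberg adjustment, so the difference did not pass the test. The antisense transcript Igf2os overlaps this gene and was at 0.166 to 0.301 RPKM. The library kit keeps strand, but whether the counting used it is not stated in the sources used here, so reads of Igf2 and Igf2os may not be fully separated.

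H19, the imprinted non-coding RNA 72622 bases from Igf2 and regulated from the same control region, was at 6058 and 5651 RPKM in si-SCR and at 4757 and 3310 RPKM in si-SMaRT. It was lower in both si-SMaRT samples, like Igf2, with a log2 fold change of -0.56 ± 0.33 (SE) and an adjusted p of 0.661 (limma, Benjamini-Hochberg). The table gives H19 jointly with Mir675, which lies within it. The ratio of H19 to Igf2 overlapped between the groups, at 52.3 and 39.2 in si-SCR and 46.9 and 36.7 in si-SMaRT.

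Igf1, the lowest of the 10 genes, was higher in si-SMaRT. This gene (chr10:87858265-87937042, plus strand) codes for the ligand best known as the mediator of growth hormone and as a muscle growth factor. Igf1 was at 0.431 and 0.493 RPKM in si-SCR and at 0.733 and 1.26 RPKM in si-SMaRT, from 54, 69, 82 and 179 reads. Both si-SMaRT samples were higher, but they differed from each other more than the controls did. This gave a log2 fold change of 0.93 ± 0.36 (SE), with a 95% interval from 0.16 to 1.69 and an adjusted p of 0.395 in limma with Benjamini-Hochberg adjustment. With a pseudocount of 1 instead of 0.1, the log2 fold change was 0.44, a pseudocount above most of the values. Leaving out si-SMaRT 1 gave 1.28 with an adjusted p of 0.00379, and leaving out si-SMaRT 2 gave 0.57 with an adjusted p of 0.369. With si-SMaRT 1 left out, limma called 26.2% of all genes, and in these fits the lone sample is assumed to vary like the control group. Igf1 has the lowest GC content of the 10 genes, 40.8%, and its log2 difference of si-SMaRT 2 minus si-SMaRT 1, 0.71, was close to the median of 0.67 for genes of similar GC.

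Both receptors were higher in si-SMaRT than in si-SCR. Igf1r (chr7:67952827-68233668, plus strand) codes for the receptor through which either ligand signals. Igf1r was at 4.68 and 5.19 RPKM in si-SCR and at 10.9 and 7.32 RPKM in si-SMaRT. The groups did not overlap, and the means were 4.93 ± 0.356 and 9.11 ± 2.54 RPKM (SD, n = 2), a ratio of 1.85. As deposited, the log2 fold change of 0.85 ± 0.29 (SE), with a 95% interval from 0.24 to 1.46, had an adjusted p of 0.291 (limma, Benjamini-Hochberg). After removal of the GC trend it was 0.84 with an adjusted p of 0.0300, past the threshold. Leaving out si-SMaRT 2 gave 1.13 with an adjusted p of 4.66e-05, where 8.49% of all genes were called, and leaving out si-SMaRT 1 gave 0.56 with an adjusted p of 0.0517. The GC content of Igf1r, 48.7%, is in a range where the median difference between the si-SMaRT samples was 0.047, while Igf1r itself was lower in si-SMaRT 2 by a log2 difference of -0.57. That GC content comes from a model of 16791 bases, while the length behind the RPKM values is known only up to a common factor.

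Igf2r (chr17:12682406-12769664, minus strand), the receptor that clears IGF2 and sorts lysosomal enzymes, was the more abundant receptor. It was at 23.7 and 32.8 RPKM in si-SCR and at 46.6 and 34.7 RPKM in si-SMaRT. The groups did not overlap, although si-SCR 2 and si-SMaRT 2 were close to each other. On the log2 scale the fold change was 0.53 ± 0.28 (SE), with a 95% interval from -0.06 to 1.12 and an adjusted p of 0.605 in limma with Benjamini-Hochberg adjustment. Without si-SMaRT 2 it was 0.74 with an adjusted p of 0.00848, and without si-SMaRT 1 it was 0.31 with an adjusted p of 0.240. Airn, the imprinted antisense transcript that begins inside Igf2r, was at 1.37 and 1.24 RPKM in si-SCR and at 1.19 and 1.72 RPKM in si-SMaRT, with overlapping groups, and the limit on strand given for Igf2 holds here too.

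Ligand and receptor levels were also set against each other within each sample, which removes the scaling of the library. That leaves any trend with GC content in place. The ratio of Igf2 to Igf2r was 4.89 and 4.40 in si-SCR and 2.18 and 2.60 in si-SMaRT. For Igf2 to Igf1r it was 24.8 and 27.8 in si-SCR and 9.30 and 12.3 in si-SMaRT. Igf2r to Igf1r gave 5.06 and 6.32 in si-SCR and 4.27 and 4.74 in si-SMaRT. All these ratios were lower in both si-SMaRT samples without overlap, and Igf2 over Igf1r was lower by most, to 0.412 of the control mean. An exact two-sided permutation test of 2 samples against 2 cannot give a p below 0.333, so these ratios are descriptions. Igf1r against Insr, the insulin receptor gene with which IGF1R forms hybrid receptors, was 1.61 and 1.49 in si-SCR and 2.27 and 1.64 in si-SMaRT.

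**Figure D3:**
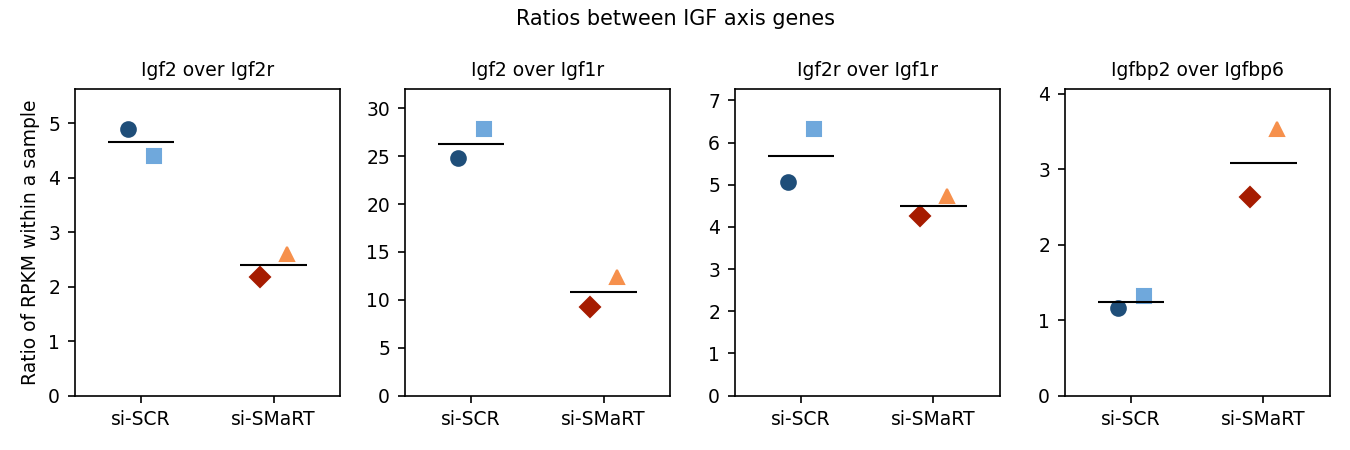
Ratios of RPKM within each sample for Igf2 over Igf2r, Igf2 over Igf1r, Igf2r over Igf1r and Igfbp2 over Igfbp6, with 1 point per sample and a bar at the mean of each group. For the ratios of Igf2, Igf2r and Igf1r the si-SMaRT points lie below both controls, and for Igfbp2 over Igfbp6 they lie above, at 2.64 and 3.54 against 1.16 and 1.32.

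Of the binding proteins, Igfbp6 had the largest estimated difference with all 4 samples, but not without si-SMaRT 2. Igfbp6 (chr15:102144362-102149511, plus strand) codes for the member that binds IGF2 in preference to IGF1. Its level was 93.2 and 80.9 RPKM in si-SCR and 64.99 and 29.8 RPKM in si-SMaRT, from 1312, 1272, 816 and 475 reads. Both si-SMaRT samples were below both controls, and they were 2.18-fold apart from each other. The means were 87.1 ± 8.70 and 47.4 ± 24.9 RPKM (SD, n = 2), and the log2 fold change was -0.98 ± 0.32 (SE), with a 95% interval from -1.66 to -0.29 and an adjusted p of 0.268 in limma with Benjamini-Hochberg adjustment. After removal of the GC trend it was -0.88 with an adjusted p of 0.0198. Without si-SMaRT 1 the log2 fold change was -1.54 with an adjusted p of 9.92e-12, and without si-SMaRT 2 it was -0.42 with an adjusted p of 0.218. Igfbp6 has the highest GC content of the 10 genes, 60.7%, and the log2 difference of -1.12 between si-SMaRT 2 and si-SMaRT 1 stands beside a median of -0.86 for genes of similar GC.

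Igfbp3 (chr11:7206086-7213923, minus strand), the main carrier of IGFs in serum, was a minor transcript here. It was at 3.18 and 4.001 RPKM in si-SCR and at 2.01 and 2.48 RPKM in si-SMaRT, from 126, 177, 71 and 111 reads. The si-SMaRT samples were both lower and the groups did not overlap. The log2 fold change was -0.65 ± 0.30 (SE), with a 95% interval from -1.28 to -0.02 and an adjusted p of 0.519 in limma with Benjamini-Hochberg adjustment, or -0.80 with an adjusted p of 0.0275 without si-SMaRT 2 and -0.51 with an adjusted p of 0.118 without si-SMaRT 1. In contrast to Igfbp6, it was higher in si-SMaRT 2 than in si-SMaRT 1.

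The pair Igfbp2 and Igfbp5 lie tail to tail on chromosome 1, 5457 bases apart, and made up most of the binding protein transcripts. Igfbp2 (chr1:72824503-72852474, plus strand), a carrier that prefers IGF2, was at 108 and 107 RPKM in si-SCR and at 171 and 106 RPKM in si-SMaRT. Only si-SMaRT 1 stood above the controls, and si-SMaRT 2 lay just below them. The log2 fold change of 0.32, with a 95% interval from -0.28 to 0.93 and an adjusted p of 0.814 (limma, Benjamini-Hochberg), was 0.67 with an adjusted p of 0.0355 without si-SMaRT 2 and turned to -0.027 without si-SMaRT 1. Igfbp5 (chr1:72857932-72874884, minus strand), known in C2C12 cells for its induction during differentiation, was at 104 and 126 RPKM in si-SCR and at 135 and 119 RPKM in si-SMaRT. These groups overlapped, with a log2 fold change of 0.15 and a 95% interval from -0.41 to 0.71.

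Igfbp4 and Igfbp7 also overlapped between the groups. Igfbp4 (chr11:99041244-99054392, plus strand), the substrate of the protease PAPP-A, was at 8.72 and 10.03 RPKM in si-SCR and at 13.6 and 8.73 RPKM in si-SMaRT. The fold change, 0.22 on the log2 scale with a 95% interval from -0.39 to 0.83, turned to -0.097 without si-SMaRT 1, since only si-SMaRT 1 was above the controls. Igfbp7 (chr5:77349240-77408041, minus strand), a relative that binds IGFs weakly, was at 51.9 and 43.9 RPKM in si-SCR and at 52.4 and 50.2 RPKM in si-SMaRT. Its log2 fold change of 0.10, with a 95% interval from -0.45 to 0.65, turned to -0.017 without si-SCR 2.

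Summed over the 6 binding proteins, the level overlapped between the groups, while the shares of some genes did not. These shares were not tested. The sum was 369 and 372 RPKM in si-SCR and 440 and 316 RPKM in si-SMaRT, so the si-SMaRT samples enclosed the controls. Igfbp6 made up 25.3% and 21.8% of the sum in si-SCR and 14.8% and 9.44% in si-SMaRT. The share of Igfbp2 was 29.3% and 28.7% in si-SCR and 39.0% and 33.4% in si-SMaRT. Thus Igfbp6 took a smaller and Igfbp2 a larger share in both si-SMaRT samples, and the ratio of Igfbp2 to Igfbp6 was 1.16 and 1.32 in si-SCR against 2.64 and 3.54 in si-SMaRT. In si-SMaRT 2 the RPKM of Igfbp2 itself, 106, was just below the controls at 108 and 107. The GC contents of Igfbp2 and Igfbp6 are near each other, 59.4% and 60.7%, and both are in the decile of genes highest in GC. Igfbp5 and Igfbp7 overlapped in their shares. Igfbp4, at 2.36% and 2.70% in si-SCR and 3.10% and 2.76% in si-SMaRT, and Igfbp3, at 0.862% and 1.08% in si-SCR and 0.457% and 0.784% in si-SMaRT, were minor parts of the sum in every sample. The sum of the binding proteins over the sum of the ligands was 3.17 and 2.57 in si-SCR and 4.30 and 3.45 in si-SMaRT.

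**Figure D4:**
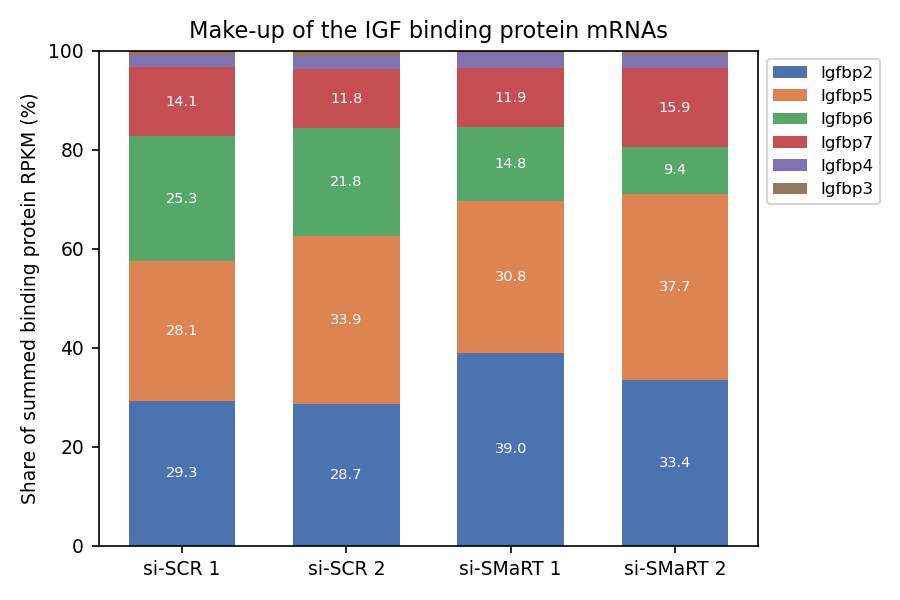
Share in percent of each binding protein gene in the summed binding protein RPKM of each sample, with the 6 genes stacked to 100%. The Igfbp6 segment is 25.3% and 21.8% in the si-SCR samples and 14.8% and 9.44% in the si-SMaRT samples.

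The order of levels was partly another in si-SMaRT. Igfbp2 and Igfbp5 had higher means than Igf2, and Igfbp7 a higher mean than Igfbp6. In si-SMaRT the values of Igfbp5 and Igfbp2, of Igfbp6 and Igfbp7, and of Igfbp4 and Igf1r overlapped, so that these neighbours cannot be ordered there. Igf2 no longer overlapped with Igfbp5, lying at 101 and 90.3 RPKM below 135 and 119 RPKM.

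The differences between the si-SMaRT samples were read against base composition gene by gene. In si-SMaRT 2, 8 of 10 genes were lower than in si-SMaRT 1, and 7 of 10 have a GC content over 50%. Over all genes the median difference was also below 0 in each decile from 49.1% GC upward. The share of all genes lower in si-SMaRT 2 was not counted, so 8 of 10 is not read as a trait of the axis. Igfbp7 departed most from the genes of its GC content: its log2 difference was -0.06 beside a median of -0.86, and after removal of the trend it was 0.64. Igfbp2, with a difference of -0.70, was left with 0.047 after removal. Igf1r was the member whose difference was nearly the same before and after, -0.57 and -0.56.

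**Figure D5:**
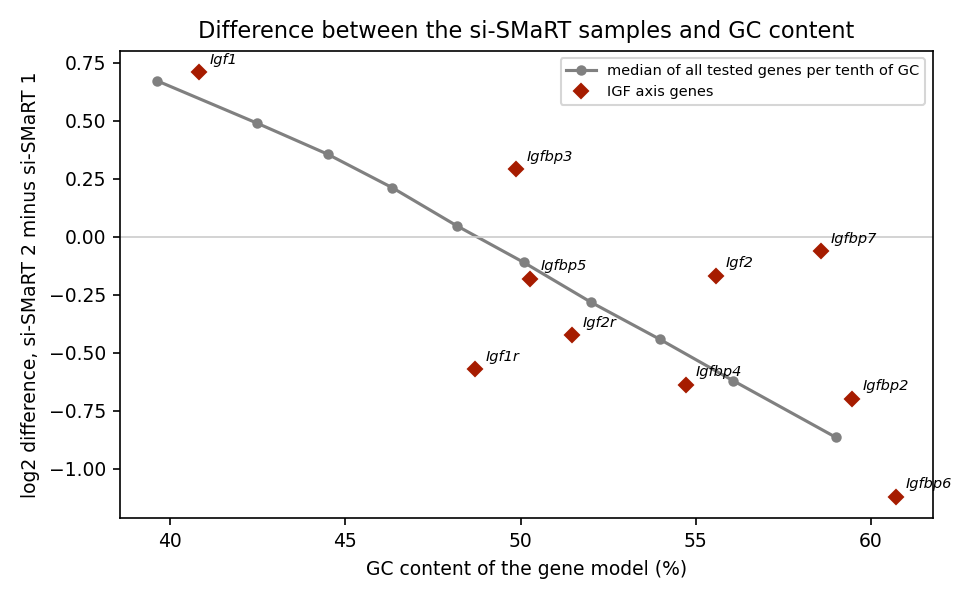
Log2 difference of si-SMaRT 2 minus si-SMaRT 1 against the GC content in percent of the gene model, for the 10 IGF axis genes (diamonds) and as the median of all tested genes in each decile of GC content (line). The line falls from 0.67 to -0.86, Igfbp6 lies lowest at -1.12, and Igfbp7 and Igf1r lie away from the line.

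The genes most like each member over the 4 samples were sought among 6883 genes with a mean of at least 5 RPKM, by the root mean square difference of centred log2 values. With 4 samples such likeness is a description only. For Igf1r they were Jun, at 0.065, and Inhbb, at 0.067. For Igf2 they were Ryr3 and Fndc5, at 0.022 and 0.026, and for Igf2r Dll1 and Slc7a1, at 0.026 and 0.029. Large and Csnk2a2 were nearest to Igfbp5, at 0.017 and 0.019. Igfbp6 was closest to Rmrp and Dpm3, at 0.035 and 0.038.

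The genes that act around the axis were described by 7 lists with 99 genes, of which 86 were in the table and 84 were tested. None passed the threshold in limma as deposited, 12 of 84 had an unadjusted p under 0.05 beside 9.09% of all genes, and voom called 1, Pappa, with an adjusted p of 0.0204, beside 0.974% of all genes. Their median log2 fold change was 0.09. With the GC trend removed, 7 of 84 were called, among them Cyr61, Ctgf, Igf2bp2, Irs1 and Pappa as higher in si-SMaRT and Rps6ka1 as lower, beside 5.81% of all genes. These 6 genes also passed with either si-SMaRT sample left out. Of the other genes named from the lists, Spry2, Ctsd and Wisp1 passed without si-SMaRT 1, with an adjusted p of 0.00702, 0.000760 and 0.00481, where 26.2% of all genes did. Socs2 and Wisp2 passed without si-SMaRT 2, with an adjusted p of 0.0165 and 0.0379, where 8.49% of all genes did.

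Receptor adaptors carry the signal from the activated receptor. Of 12 tested, 0 passed, 3 were higher in both si-SMaRT samples beside 20.2% of all genes, 1 was lower in both beside 20.4%, and the median log2 fold change was 0.19. Irs1, the docking protein that IGF1R phosphorylates, was at 11.6 and 15.1 RPKM in si-SCR and at 21.9 and 20.4 RPKM in si-SMaRT. Its log2 fold change of 0.67 had an adjusted p of 0.413 as deposited and 0.0306 after removal of the GC trend (limma, Benjamini-Hochberg). Socs2, a feedback inhibitor of growth hormone signalling, was at 4.29 and 4.52 RPKM in si-SCR and at 2.45 and 3.46 RPKM in si-SMaRT, and the log2 fold change was -0.58. Crk, the most abundant adaptor, was at 52.3 to 66.8 RPKM with overlapping groups.

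In the PI3K-AKT-mTOR arm, which controls growth and survival, 0 of 29 tested genes passed, and the groups did not overlap in 9 beside 40.7% of all genes, of which 6 were higher in si-SMaRT. Foxo1, a transcription factor that AKT keeps out of the nucleus, was at 1.07 and 1.56 RPKM in si-SCR and at 2.24 and 2.01 RPKM in si-SMaRT. Rps6, the ribosomal protein used as a readout of mTOR signalling, was the most abundant and overlapped between the groups, at 670 to 925 RPKM. In the RAS-MAPK arm, which drives proliferation, 0 of 20 passed, 5 were higher and 5 lower without overlap beside 20.2% and 20.4% of all genes, and the median log2 fold change was -0.0031. Rps6ka1, a kinase downstream of ERK, was at 1.69 and 1.79 RPKM in si-SCR and at 0.915 and 0.443 RPKM in si-SMaRT. The log2 fold change of -1.31 had an adjusted p of 0.149 as deposited and 0.0144 without the GC trend (limma, Benjamini-Hochberg). Spry2, a feedback inhibitor of this arm, was at 12.4 and 13.4 RPKM in si-SCR and at 17.7 and 20.6 RPKM in si-SMaRT.

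Among the genes that process IGFs or free them from the binding proteins, 0 of 9 tested passed. Pappa, the protease PAPP-A that cleaves IGFBP4, was at 0.287 and 0.295 RPKM in si-SCR and at 0.8995 and 0.912 RPKM in si-SMaRT. Its groups did not overlap, but the values come from only 40, 46, 112 and 144 reads. The small spread within each group is therefore no measure of precision. The log2 fold change was 1.36 ± 0.35 (SE). The adjusted p was 0.113 as deposited and 0.0186 without the GC trend (limma, Benjamini-Hochberg). Ctsd, the lysosomal protease cathepsin D, which the table joins with Ifitm10, was at 101 and 96.0 RPKM in si-SCR and at 84.0 and 54.6 RPKM in si-SMaRT. Igf2bp2, which binds Igf2 mRNA and has known roles in myoblasts, was at 2.09 and 2.5005 RPKM in si-SCR and at 4.11 and 3.74 RPKM in si-SMaRT. Its adjusted p was 0.381 as deposited and 0.0278 without the GC trend. Its list, which also holds imprinted partners of Igf2 such as H19, had 0 of 3 tested genes past the threshold as deposited.

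The relatives that share the IGFBP domain, 4 of 10 listed genes in the table, were all higher in both si-SMaRT samples, beside 20.2% of all genes. Their median log2 fold change was 0.84, but none passed the threshold as deposited. Cyr61, a matricellular protein, was at 30.6 and 42.6 RPKM in si-SCR and at 78.6 and 68.8 RPKM in si-SMaRT, with a log2 fold change of 1.02 and an adjusted p of 0.137 as deposited and 0.00606 without the GC trend (limma, Benjamini-Hochberg). Ctgf was at 10.5 and 14.7 RPKM in si-SCR and at 20.1 and 20.3 RPKM in si-SMaRT, where the adjusted p was 0.395 as deposited and 0.0361 without the GC trend. Wisp1 was at 71.8 and 81.4 RPKM in si-SCR and at 103 and 127 RPKM in si-SMaRT. Wisp2 was at 0.205 and 0.515 RPKM in si-SCR and at 0.875 and 0.654 RPKM in si-SMaRT. These values of Wisp2 come from only 5, 14, 19 and 18 reads, so its difference is poorly measured. These genes belong to the CCN family, whose products are not carriers of IGFs in the way of the binding proteins above. The genes of mannose 6-phosphate sorting, which act with IGF2R on lysosomal enzymes, had 0 of 7 past the threshold as deposited. In 1 of 7 the groups did not overlap, beside 40.7% of all genes, and the median log2 fold change was -0.028. M6pr, the smaller mannose 6-phosphate receptor, was at 46.3 and 43.1 RPKM in si-SCR and at 41.2 and 46.5 RPKM in si-SMaRT.

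The labelled cell type was checked by its markers, and 12 of 12 myotube markers were in the table. Of these, 10 were lower in both si-SMaRT samples, and Ckm had the largest fall. Myh8 was higher in both, at 12.9 and 15.1 RPKM in si-SCR and 23.6 and 18.95 RPKM in si-SMaRT. Its log2 fold change of 0.596 had an adjusted p of 0.508 as deposited (limma, Benjamini-Hochberg). Actn2 overlapped between the groups, at 4.41 and 5.23 RPKM in si-SCR and 5.37 and 2.82 RPKM in si-SMaRT. Ckm, muscle creatine kinase, was at 676 and 641 RPKM in si-SCR and at 380 and 201 RPKM in si-SMaRT, with a log2 fold change of -1.25 and an adjusted p of 0.106 as deposited, 0.0160 without the GC trend and 0.0304 with voom (limma, Benjamini-Hochberg). Without si-SMaRT 1 its adjusted p was 1.43e-08, and without si-SMaRT 2 it was 0.0511. Of 11 markers of undifferentiated myoblasts that were tested, 2 passed the threshold, Ccnd1 and Id3, beside 0.505% of all genes. This count depended on the processing. Only 1 passed with no filter on low values or with quantile normalization, while 3 passed with the GC trend removed and 2 with voom. Ccnd1, cyclin D1, was at 3.96 and 3.27 RPKM in si-SCR and 9.17 and 9.60 RPKM in si-SMaRT. Id3, an inhibitor of myogenic factors, was at 2.91 and 3.20 RPKM in si-SCR and 12.3 and 7.26 RPKM in si-SMaRT. Their adjusted p was 0.0356 and 0.0232. The list as a whole was mixed, with 5 genes above and 6 below a log2 fold change of 0 and a median of -0.0040. Id2, at 23.1 and 21.2 RPKM in si-SCR and 11.3 and 19.3 RPKM in si-SMaRT, and Heyl, a Notch target, at 9.58 and 12.7 RPKM in si-SCR and 8.11 and 5.22 RPKM in si-SMaRT, were lower in both si-SMaRT samples without passing the threshold as deposited. Heyl passed without the GC trend, with an adjusted p of 0.0333, and without si-SMaRT 1, with 1.97e-05. Id2 passed without si-SMaRT 2, with an adjusted p of 0.000215. The summed RPKM of these markers was 180 and 196 in si-SCR and 225 and 235 in si-SMaRT. Adipocyte and osteoblast markers, which stand for other fates of mesenchymal cells, summed to between 1.34 and 2.98 RPKM, and 8 of 11, among them Adipoq, Plin1 and Sp7, had no entry in the table.

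In the pull-down, no deposited peak lay on an IGF axis gene. None of the 345 peaks of the lnc-SMaRT library and none of the 336 peaks of the LacZ library overlapped one of the 10 genes by at least 1 base on the same strand. The lnc-SMaRT gene itself held 5 of the 345 peaks. With so few peaks beside 11642 genes in the RPKM table, most genes hold none. The share of all genes with a peak was not counted, so the absence cannot be called particular to the IGF axis. With 1 library of each kind and only peak positions and p-values at hand, the recovery of IGF axis RNA below the level of a called peak was not analysed here.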

How the data were processed

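Before deposit the authors trimmed reads (Trimmomatic), discarded those from rRNA and tRNA (Bowtie2), aligned to GRCm38 (TopHat2), counted on Ensembl 77 genes (HTSeq) and left out genes of low CPM. The deposited values are RPKM on library sizes scaled by TMM. The deposited peak lists give a p-value for each peak, from the authors' Piranha run with 200-base bins, and which of the described comparisons the lists hold is not stated.

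Groups were taken from the sample labels. R 4.3.3 with limma 3.58.1 (lmFit, then eBayes with its trend option) was applied to log2(RPKM + 0.1) of genes with a mean of at least 0.5 RPKM, 2 samples against 2, with Benjamini-Hochberg adjustment over 11086 genes and a threshold of 0.05. Fold changes are on this scale, which understates changes at low RPKM. The study tested counts, for which RPKM stand in here. Reads were recovered from the steps of the RPKM values of each gene and are lower limits where gene length did not fix a common factor, as for Igf1r (6632 of 11642 genes were fixed). They cover counting error only. Gene models, GC content and transcripts came from GENCODE M21 on GRCm38, matched by symbol for 11378 of 11642 entries, and 576 entries join overlapping genes. The GC trend was removed per sample by loess (span 0.3). Other steps ran in Python 3.11.15 with scipy 1.17.1, pandas 2.3.3, numpy 2.4.6 and matplotlib 3.10.9.

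The members and lists were chosen with earlier results of these data known. Named were the 10 genes, the target, H19, from each list every gene past the threshold, the most abundant and the 2 with the largest absolute fold change, and the 2 genes most like each of Igf1r, Igf2, Igf2r, Igfbp5 and Igfbp6. Igf2os, Airn, Insr, Ctgf, Id2, Heyl, Myh8, Actn2 and the markers listed as having no entry were added after the values were seen. Some genes that this rule names are not reported here. Deviations of samples with equal replicate numbers correlated at -0.36, or at -0.18 with the GC trend removed. The labels give only numbers, so whether these pair the samples is not known, and the main fit did not pair them. Alternatives were other pseudocounts and filters, quantile normalization, no variance trend, a replicate block, each sample left out, removal of the GC trend, voom on recovered reads and, chosen after seeing the data, crossed replicate numbers.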

Additional observations from a re-analysis of the deposited data

How the results depend on the processing

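Pseudocounts of 1 and 0.01, no filter on low values, quantile normalization and no variance trend left all 10 genes on their side of the threshold and in their direction. A mean of at least 5 RPKM did too, for the 8 genes it kept (Igf1 and Igfbp3 are below it). Removing the GC trend called 2 of 10, Igf1r (0.84) and Igfbp6 (-0.88). The replicate block with the GC trend removed called 0 of 10, with an adjusted p of 0.105 for Igf1r and 0.0716 for Igfbp6. Crossing the replicate numbers, chosen after seeing the data, called the same 2 of 10, at 0.85 and -0.98 with an adjusted p of 0.0331 and 0.00828. Leaving out 1 sample gave 0 to 4 of 10. The log2 fold change then ranged from 0.57 to 1.28 for Igf1, -0.59 to -0.28 for Igf2, 0.56 to 1.13 for Igf1r, 0.29 to 0.76 for Igf2r, -0.027 to 0.67 for Igfbp2, -0.81 to -0.49 for Igfbp3, -0.097 to 0.54 for Igfbp4, 0.0097 to 0.29 for Igfbp5, -1.54 to -0.42 for Igfbp6 and -0.017 to 0.22 for Igfbp7, so Igfbp2, Igfbp4 and Igfbp7 reversed. The cause was not tested.

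Genes called over the whole table numbered 56, against 37 with quantile normalization, 96 with the replicate block, 24 to 2908 with 1 sample left out (24 without si-SCR 1, 30 without si-SCR 2, 2908 without si-SMaRT 1 and 941 without si-SMaRT 2), 631 with the GC trend removed, 108 with voom, 108 with the replicate block and the GC trend removed, and 487 with crossed numbers. Pathway genes called numbered 0 of 84, against 1 with no variance trend, 0 to 26 with 1 sample left out (26 without si-SMaRT 1 and 11 without si-SMaRT 2), 7 with the GC trend removed, 1 with voom, 1 with the replicate block and the GC trend removed, and 3 with crossed numbers. The labels do not say whether equal numbers share a culture, so the replicate block stands here only. It called 0 of 10, with an adjusted p of 0.370 for Igfbp6, the lowest of the 10 (limma, Benjamini-Hochberg). Of the 11 markers of undifferentiated myoblasts it called 1. The peak overlaps were 0 also with peaks at p under 0.001 or with 50% of a peak inside a gene. Among the 10 genes depth limits Igf1 most, with 54 to 179 reads in a sample. Some genes of the lists had fewer, such as Pappa with 40 to 144 and Wisp2 with 5 to 19.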
